A study of Mus with 35 samples.

Results

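The genes described here are 37 mouse genes of glutamate signalling: the subunits of the AMPA, NMDA, kainate and delta receptors, 6 metabotropic glutamate receptors, the auxiliary subunits that travel with AMPA and kainate receptors, and the MAGUK scaffolds that hold receptors at the synapse. They were taken by gene symbol from a table of RNA levels with 55573 rows in 35 brain libraries. The 37 symbols matched 38 rows, because Grik2 has 2 rows, which were kept apart. All 37 genes had a mean of at least 1 TPM (transcripts per 1000000, a level that is divided by transcript length and scaled to the same total in every library), so none was lost to the filter on low values.

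Glutamate is the main excitatory transmitter of the brain. AMPA receptors carry the fast current of excitatory synapses, NMDA receptors admit calcium and gate plasticity, and kainate receptors act on both sides of the synapse. Delta receptors bridge the synaptic cleft through secreted cerebellins, and metabotropic receptors signal through G proteins. TARPs (the Cacng genes), cornichons (Cnih2, Cnih3) and Shisa9 are auxiliary subunits that set the traffic and gating of AMPA receptors, Neto1 and Neto2 do so for kainate receptors, and the Dlg proteins anchor receptor complexes in the postsynaptic density.

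Hnrnph2 is an X-linked gene for an RNA-binding protein that takes part in splicing. The study compared male C57BL/6J mice hemizygous for the Hnrnph2 missense mutation P209L or R206W with wild-type (WT) littermates. Newborn pups of every group received 1 injection of 30 µg antisense oligonucleotide (ASO, a short synthetic strand that pairs with an RNA and can lower it) into the cerebral ventricles, and brains were collected later. Libraries formed 3 cohorts: P209L at 8 weeks of age, P209L at 3 weeks and R206W at 3 weeks. Each cohort held mutants given the Hnrnph2 ASO, mutants given the control ASO, WT given the Hnrnph2 ASO and WT given the control ASO, so that every mouse carried an ASO. There were 3 libraries in each of 11 groups and 2 in the remaining group, 3-week P209L mice that received the Hnrnph2 ASO. The titles give each library an animal name of its own, and p-values measure the spread between these libraries. Some animal names share a stem. No stem held both ASOs in any cohort (11 stems at 8 weeks, 9 in the 3-week P209L cohort and 4 in the R206W cohort), so the ASO and whatever a stem stands for cannot be told apart. Both genotypes occurred in 1 of the stems at 8 weeks, in 2 of the 3-week P209L cohort and in 3 of the R206W cohort. Outside these stems, genotype and stem cannot be told apart either. All WT libraries with the control ASO in the R206W cohort shared the same stem. The tests treated libraries of the same stem as independent.

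The targeted gene followed its labels: Hnrnph2 RNA ranged from 6.95 to 26.7 TPM in libraries with the Hnrnph2 ASO, against 88.2 to 117 TPM in those with the control ASO. Between 16235 and 16649 genes had 1 TPM or more in each library. WT replicate 3 with the Hnrnph2 ASO at 3 weeks in the P209L cohort stood apart, with 9.28% of its TPM in mitochondrial genes and 23.1% in its 50 most abundant genes, against 12.2 to 15.4% and 27.1 to 33.8% in the other 34 libraries. Several results that rest on it are also given without it. Read depth cannot be had from TPM and is unknown. The design text speaks of whole brain, whereas the protocol for RNA speaks of cortex. All 10 cerebellar granule cell markers were present, with a summed level of 357 to 1053 TPM, as were all 10 markers of cortical excitatory neurons, with 683 to 1074 TPM. Most of the latter sum came from 1 gene, the vesicular glutamate transporter Slc17a7, which had 536 to 849 TPM. In 8-week WT with the control ASO, replicate 3 was the highest of its group in 28 of the 37 genes and replicate 2 the lowest in 28, so results that rest on this group are also given without them where that matters.

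Dlg4, the main MAGUK scaffold of the postsynaptic density, had the highest level of the 37 genes, 442 ± 49.7 TPM (SD over 35 libraries). The obligatory NMDA receptor subunit Grin1 followed with 281 ± 31.8 TPM, then the cornichon Cnih2 with 217 ± 25.5 TPM and the type II TARP Cacng7 with 184 ± 17.5 TPM. Among AMPA receptor subunits, Gria2, the subunit that makes the channel impermeable to calcium, and Gria1 had 148 ± 25.0 and 137 ± 11.03 TPM, a difference smaller than their spread. Gria3 and Gria4 were lower, at 70.8 ± 8.10 and 69.7 ± 7.72 TPM.

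Within the NMDA receptor family, Grin2c, a subunit typical of cerebellar granule cells, averaged 52.5 ± 8.64 TPM, Grin2b 33.5 ± 10.3 TPM and Grin2a 22.9 ± 4.47 TPM. Grin3a and Grin2d were lowest, with 16.3 ± 2.58 and 12.02 ± 1.47 TPM. Kainate receptor genes spanned a wide range. Grik5, a subunit that needs a partner from Grik1 to Grik3 to form a channel, had 123 ± 15.5 TPM, while Grik2, Grik3, Grik4 and Grik1 had 30.7, 23.4, 11.5 and 11.3 TPM. The other Grik2 row averaged 10.8 TPM. The metabotropic receptors included Grm5, the postsynaptic receptor of group I, at 41.3 ± 11.8 TPM, and Grm7, Grm2 and Grm3 at 20.2, 20.1 and 19.7 TPM. Their range ran from Grm4 at 75.5 ± 15.7 TPM to Grm8 at 7.07 ± 0.969 TPM, and the delta receptor gene Grid1 had 30.8 ± 3.54 TPM.

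The other auxiliary genes and scaffolds lay between these extremes. The type I TARPs Cacng3, Cacng8, Cacng2 and Cacng4 had 63.0, 53.7, 46.7 and 39.4 TPM, and the type II TARP Cacng5 had 20.8 TPM, far below its relative Cacng7. The cornichon Cnih3 and Shisa9 had 37.2 and 34.7 TPM, and the kainate receptor partners Neto2 and Neto1 had 34.0 and 25.9 TPM. Among scaffolds Dlg2, Dlg3 and Dlg1 had 109, 70.0 and 64.2 TPM.

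**Figure D1:**
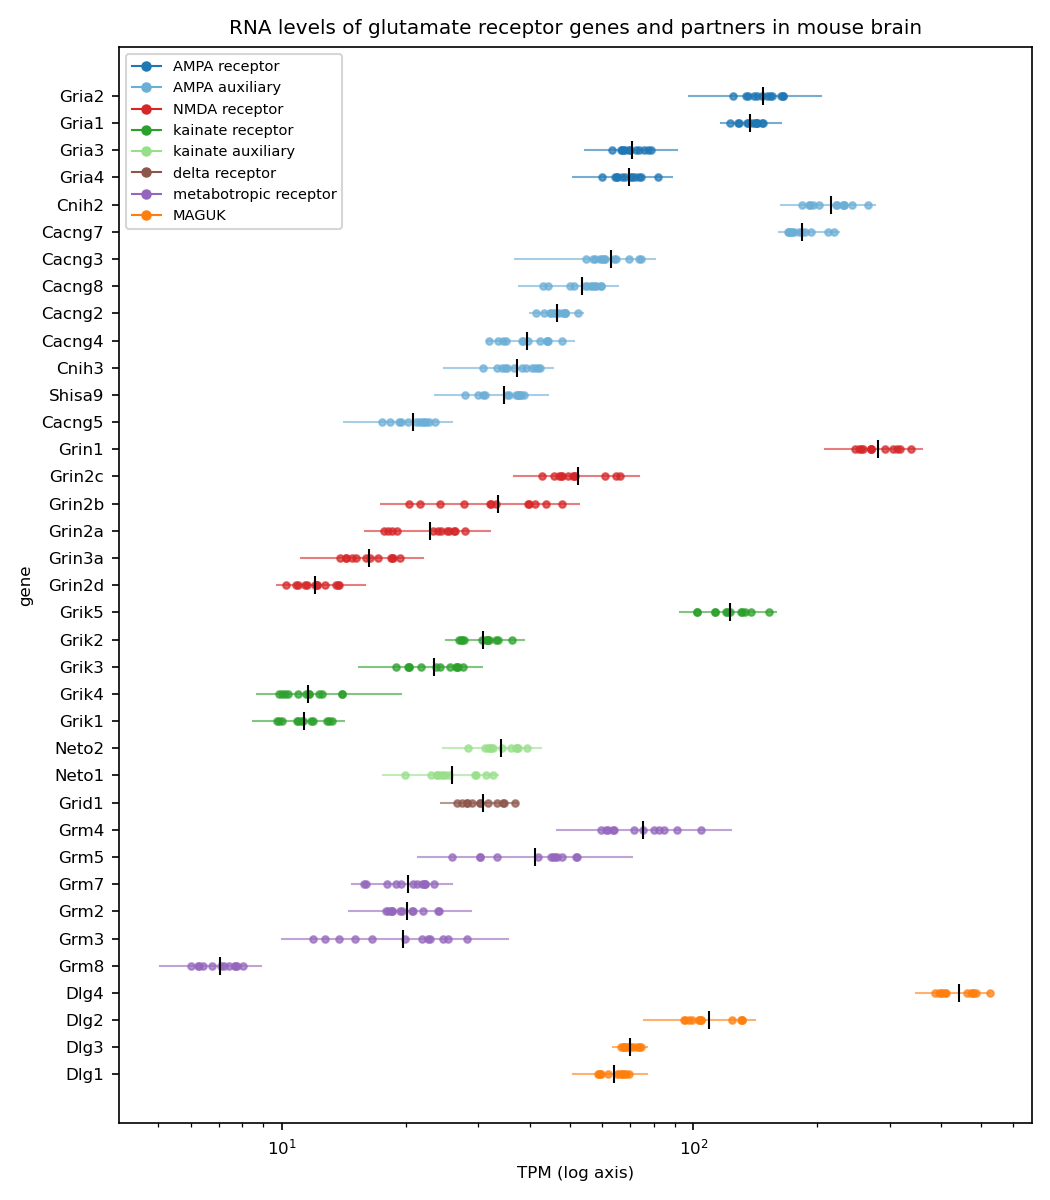
Level of each gene in TPM on a log axis, grouped by role; the line spans the lowest to the highest of the 35 libraries, points are the 12 group means and the black tick is the mean over libraries. Dlg4, Grin1 and Cnih2 lead, and Grm8 at 7.07 TPM is lowest.

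In mutants given the control ASO, 6 of the 37 genes differed from WT given the control ASO when averaged over the 3 cohorts, 5 of them higher. The TARP Cacng7, the delta receptor gene Grid1, the kainate receptor genes Grik1 and Grik4 and the scaffold Dlg4 rose, by 0.17 to 0.28 on the log2(TPM + 1) scale, and the type II TARP Cacng5 fell by 0.25. These calls came from limma, fitted on all 35 libraries with Benjamini-Hochberg adjustment over 16556 genes and a threshold of 0.05. Over all those genes, 4.28% were called in this comparison, 2.55% higher and 1.73% lower. The median log2 difference of the 37 genes was 0.08, against 0.01 over all genes tested, and 16 had an unadjusted p under 0.05. In whole-tissue RNA, fewer cells of a type and less RNA per cell cannot be told apart.

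Cacng7 lies on chromosome 7 (3332027 to 3368221, mm10). It encodes a type II TARP, an AMPA receptor partner that is also found in the cerebellum. With the control ASO it had at 8 weeks 212, 220.2 and 226 TPM in P209L libraries and 175, 172 and 174 TPM in WT libraries. At 3 weeks it had 207, 216 and 216 TPM in P209L libraries and 183, 184 and 193 TPM in WT libraries, and in the R206W cohort 180.2, 185 and 214 TPM in R206W libraries and 179, 170.1 and 178 TPM in WT libraries. All 9 mutant libraries lay above the WT libraries of their own cohort, with the widest gap at 8 weeks. The average log2 difference was 0.22 (SE 0.030, adjusted p = 2.42e-05, limma), and an exact permutation test within cohorts gave p = 0.00025, two-sided, the smallest that this design allows.

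Grid1, on chromosome 14 (34820003 to 35583387), had in libraries with the control ASO 34.8, 35 and 33.9 TPM in P209L and 27.9, 28.2 and 30.9 TPM in WT libraries at 8 weeks. At 3 weeks the P209L libraries had 37.2, 36.7 and 36.4 TPM and the WT libraries 32.5, 26.6 and 31.7 TPM, and in the R206W cohort the R206W libraries had 29.2, 32.7 and 33.0 TPM and the WT libraries 27.5, 27.6 and 27.1 TPM. The groups did not overlap in any of the 3 cohorts. The average difference was 0.24 (SE 0.044, adjusted p = 0.00108, limma; exact permutation p = 0.00025).

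Dlg4, on chromosome 11 (70017203 to 70045535), had with the control ASO 461, 476 and 452 TPM in P209L and 379, 347 and 476 TPM in WT libraries at 8 weeks, where WT replicate 3 reached the mutant range. At 3 weeks it had 528, 526 and 527 TPM in P209L libraries and 492, 473 and 499 TPM in WT libraries, and in the R206W cohort 476, 453 and 488 TPM in R206W libraries and 428, 388 and 422 TPM in WT libraries. Both 3-week cohorts were without overlap. The average difference was 0.18 (SE 0.040, adjusted p = 0.0100, limma; exact permutation p = 0.00075).

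Grik1 and Grik4 are the least abundant kainate receptor genes here. Grik4, on chromosome 9 (42518182 to 42945000), had with the control ASO 13.0, 12.3 and 12.2 TPM in P209L and 10.3, 8.67 and 10.51 TPM in WT libraries at 8 weeks. It had 14.3, 14.1 and 13.4 TPM in P209L and 11.6, 10.7 and 10.4 TPM in WT libraries at 3 weeks, and 11.3, 11.4 and 12.04 TPM in R206W and 10.8, 10.6 and 9.04 TPM in WT libraries of the R206W cohort. Mutant and WT libraries were apart in every cohort (0.28, SE 0.070, adjusted p = 0.0208, limma; exact permutation p = 0.00025), although the adjusted p was 0.0525 without 8-week WT replicate 2. Grik1, on chromosome 16 (87895901 to 88290863), averaged 11.1 ± 1.01, 12.8 ± 0.530 and 13.2 ± 0.960 TPM in mutants of the 8-week P209L, 3-week P209L and R206W cohorts, against 9.97 ± 0.250, 10.8 ± 0.588 and 11.9 ± 0.552 TPM in WT (SD). Its groups were apart in the 3-week P209L cohort and overlapped in the other 2 (0.17, SE 0.042, adjusted p = 0.0181, limma; exact permutation p = 0.0015).

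Cacng5, which lies on chromosome 11 (107874604 to 107915055), was the 1 gene that fell. With the control ASO it had 14.2, 19.7 and 18.5 TPM in P209L and 21.3, 22.5 and 19.6 TPM in WT libraries at 8 weeks. It had 18.5, 16.8 and 19.4 TPM in P209L and 21.2, 23.8 and 22.1 TPM in WT libraries at 3 weeks, and 17.0, 22.8 and 17.9 TPM in R206W and 24.3, 17.9 and 24.3 TPM in WT libraries of the R206W cohort. The groups were apart at 3 weeks in the P209L cohort and overlapped elsewhere. The average difference was -0.25 (SE 0.070, adjusted p = 0.0384, limma; exact permutation p = 0.00875), and the call ended in 11 of 18 fits that left out 1 library, with adjusted p up to 0.0990.

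**Figure D2:**
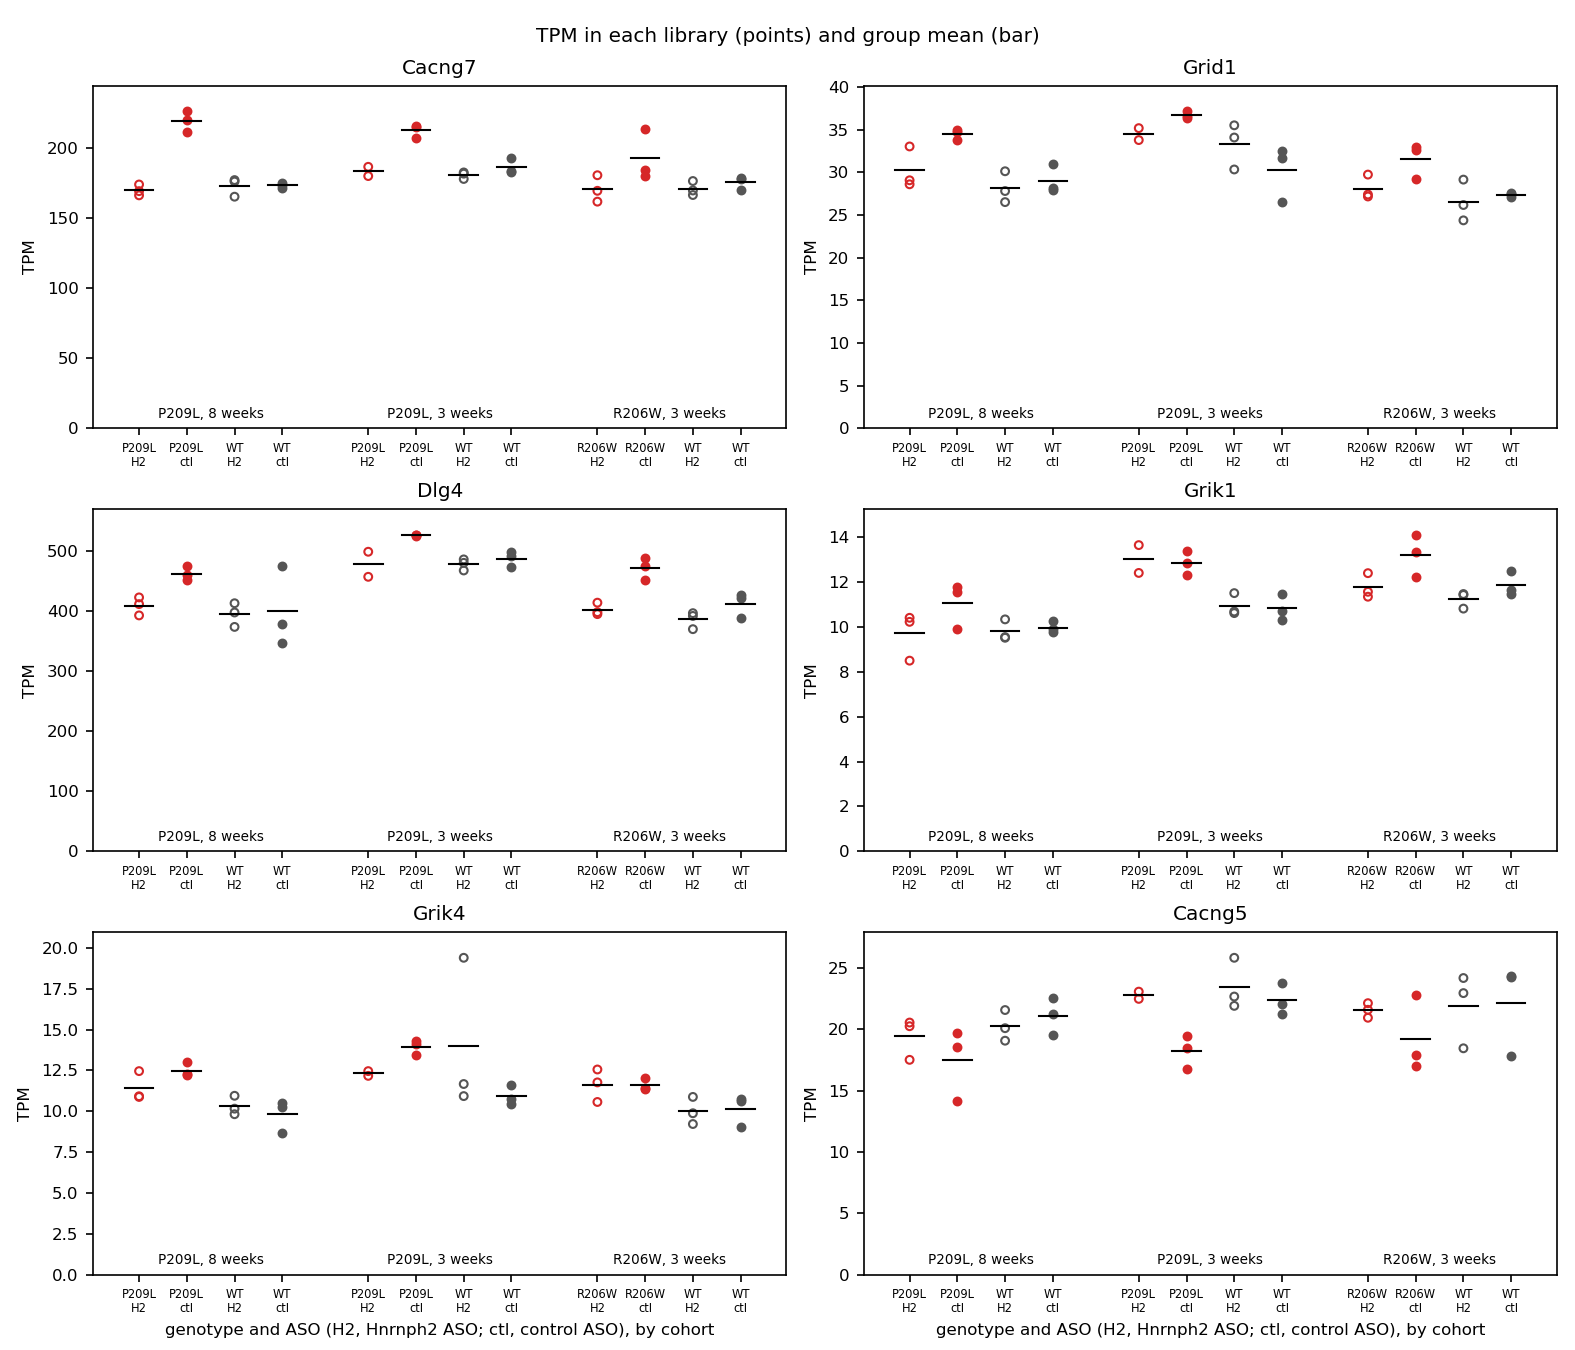
TPM of Cacng7, Grid1, Dlg4, Grik1, Grik4 and Cacng5 in each library; points are libraries (mutants red, WT grey, open for the Hnrnph2 ASO and filled for the control ASO), bars are group means, and axes start at 0. Filled red points lie above filled grey ones in every cohort for Cacng7, Grid1 and Grik4.

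Read by role, the AMPA receptor subunits were not called (0 of 4 in limma, 1 with an unadjusted p under 0.05), with log2 differences of -0.14 for Gria4 to 0.03 for Gria3. Of the 6 NMDA receptor genes none was called and 3 had an unadjusted p under 0.05. Grin2b, the subunit that dominates NMDA receptors early in life, had the largest average difference of all 37 genes, 0.36 (SE 0.12), with an adjusted p of 0.0928. It had 43.9, 50.7 and 36.96 TPM in P209L and 26.0, 23.2 and 49.9 TPM in WT libraries at 8 weeks, where WT replicate 3 lay within the mutant range. At 3 weeks it had 52.6, 47.1 and 44.2 TPM in P209L and 46.1, 36.1 and 37.1 TPM in WT libraries, and 31.5, 23.8 and 27.9 TPM in R206W and 26.3, 17.4 and 21.3 TPM in WT libraries of the R206W cohort. The groups overlapped in every cohort. Without 8-week WT replicate 3 the difference was 0.47 and was called (adjusted p = 0.00501), and 10 of the 37 genes were called in all, Grik5, Cnih3 and Cacng8 being the others added. Over all genes that fit called 1164 of 16561, against 708 of 16556 in the main fit, so calls rose outside these genes too.

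Besides Grik1 and Grik4, the kainate receptor subunit Grik5 had a difference of 0.15 (SE 0.047, adjusted p = 0.0741, limma), so 2 of 5 kainate receptor genes were called. None of the 6 metabotropic receptors was called (1 with an unadjusted p under 0.05), with differences from -0.20 for Grm4 to 0.14 for Grm3. Of the 9 AMPA receptor auxiliary genes, Cacng7 and Cacng5 were called and 6 had an unadjusted p under 0.05, with Cacng8 at 0.17 (adjusted p = 0.134) and Cacng4 at -0.11 (adjusted p = 0.106) among those that did not pass. The kainate auxiliary genes Neto1 and Neto2 had 0.05 and -0.07 and were not called (0 of 2 at an unadjusted p under 0.05). Among MAGUKs, Dlg1, Dlg2 and Dlg3 had differences of 0.02, 0.04 and -0.04, and Dlg4 alone was called.

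Within single cohorts, limma called 1 gene. Cacng7 was higher in P209L at 8 weeks (0.34, adjusted p = 0.0260, against 0.17% of all genes called, 0.163% higher), but the call ended in 5 of 6 fits without 1 library, and a fit of the compared groups alone gave 0 calls. At 3 weeks no gene passed in P209L (8 with an unadjusted p under 0.05; 0.133% of all genes called), where Cacng7 (0.19, adjusted p = 0.234), Cacng5 (-0.28, adjusted p = 0.331) and Grid1 (0.28, adjusted p = 0.370) had the smallest p. None passed in R206W (6 with an unadjusted p under 0.05; 0.133% of all genes called), where Dlg4 (0.20, adjusted p = 0.291), Cacng8 (0.30, adjusted p = 0.349) and Gria4 (-0.25, adjusted p = 0.398) led. The difference between the P209L effects at 8 and 3 weeks, and that between the R206W and P209L effects at 3 weeks, were tested directly. Limma called 0 of the 37 genes in either, with 0 at an unadjusted p under 0.05 and 0% of all genes called. The smallest p in the age test was that of Cacng7 (0.15, SE 0.073) and in the allele test that of Cacng8 (0.26, SE 0.15).

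Cell type markers moved with the mutation too. Of 10 cerebellar granule cell markers, 4 were called lower in mutants. Their summed level was 488 to 571 TPM in P209L and 480.0 to 647 TPM in WT libraries at 8 weeks, 496 to 581 TPM in P209L and 603 to 651 TPM in WT libraries at 3 weeks, and 600.4 to 730.0 TPM in R206W and 763 to 1053 TPM in WT libraries of the R206W cohort. Mutants and WT were apart in both 3-week cohorts and overlapped at 8 weeks. Of 8 markers of mature oligodendrocytes 3 were called lower. They summed to 5836 to 6857 TPM in P209L and 6283 to 8325 TPM in WT libraries at 8 weeks, and to 12914 to 13492.5 TPM in P209L and 14196 to 16102 TPM in WT libraries at 3 weeks. In the R206W cohort they summed to 11275.5 to 14547 TPM in R206W and 13377 to 14145 TPM in WT libraries. Oligodendrocyte precursor markers (2 of 6 called lower) summed to 317 to 351 TPM in P209L and 381 to 429 TPM in WT libraries at 3 weeks, without overlap, and overlapped in the other 2 cohorts. Also apart in the 3-week P209L cohort were the sums of microglial markers (0 of 7 called), 188 to 211 TPM in P209L and 219 to 243 TPM in WT, of erythrocyte markers (0 of 4 called), 747 to 1186 TPM in P209L and 1486 to 2178 TPM in WT, and of interneuron markers (1 of 9 called higher), 1668 to 1747 TPM in P209L and 1749.8 to 1761 TPM in WT. Endothelial markers (1 of 6 called lower) were apart in the R206W cohort, with 189.7 to 228 TPM in R206W and 234 to 244 TPM in WT. Of the other lists, 1 of 7 of Purkinje cells was called higher, and 0 of 10 of cortical excitatory neurons, 0 of 7 of striatal projection neurons and 0 of 8 of astrocytes were called. When the mean log2 level of the granule cell markers was added to the fit as a covariate, 3 of the 6 genes were called: Cacng7 (0.22, adjusted p = 0.000652), Grid1 (0.21, adjusted p = 0.0253) and Grik1 (0.23, adjusted p = 0.00367). In that fit Dlg4 had a difference of 0.11 (adjusted p = 0.211), Grik4 of 0.29 (adjusted p = 0.0718) and Cacng5 of -0.22 (adjusted p = 0.188). The summed granule cell markers were themselves lower in mutants of both 3-week cohorts, so this fit cannot separate them from the genotype. The part of these marker lists in the results was not tested.

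**Figure D3:**
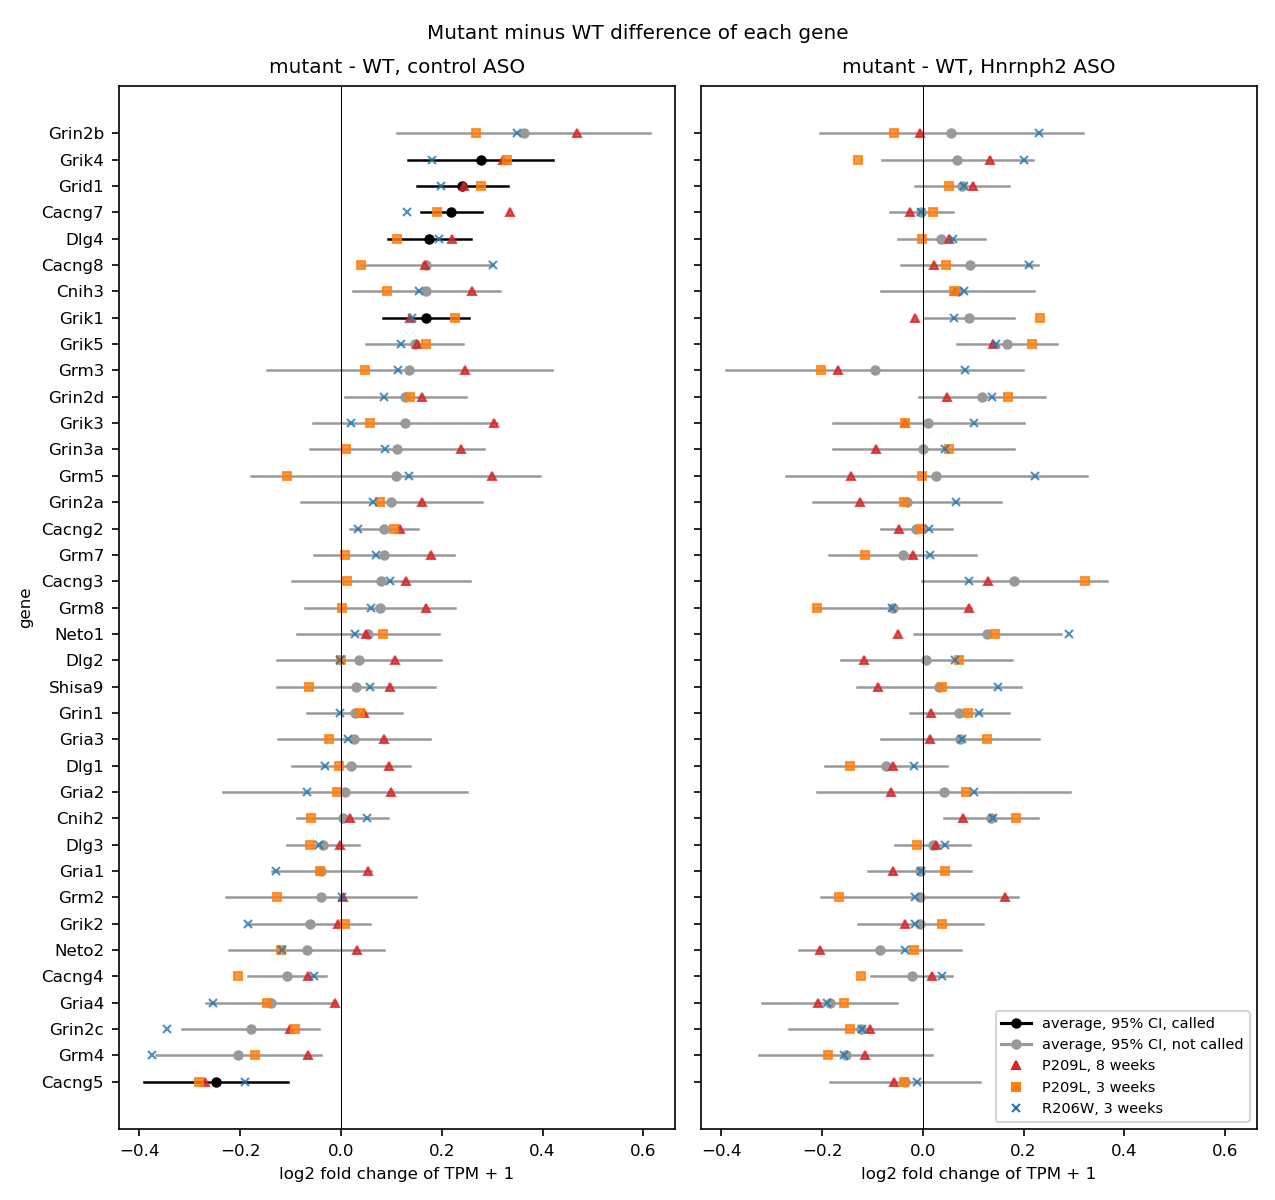
Mutant minus WT difference of each gene as log2 fold change of TPM + 1, with the control ASO at left and the Hnrnph2 ASO at right; circles and lines are the average over cohorts with its 95% confidence interval (black where called), and coloured marks are the 3 cohorts. With the control ASO 6 genes were called, and with the Hnrnph2 ASO 0.

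In mutants, 2 of the 37 genes were lower with the Hnrnph2 ASO than with the control ASO. Averaged over cohorts, these were Cacng7, by 0.25, and Dlg4, by 0.18, on the log2 scale. Over all genes, 2.5% were called in this comparison, 1.31% lower, and 9 of the 37 genes had an unadjusted p under 0.05. This comparison uses the same mutant libraries with the control ASO as the mutation comparison, so their directions are not independent.

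Cacng7 had 169, 166 and 174 TPM in P209L libraries with the Hnrnph2 ASO at 8 weeks, against 212, 220.2 and 226 TPM in those with the control ASO. It had 180.2 and 187 TPM in P209L with the Hnrnph2 ASO at 3 weeks, against 207, 216 and 216 TPM with the control ASO, and 162, 169.7 and 181 TPM in R206W with the Hnrnph2 ASO, against 180.2, 185 and 214 TPM with the control ASO. The groups were apart in both P209L cohorts and overlapped in the R206W cohort, by 1 library. The average change was -0.25 (SE 0.031, adjusted p = 6.72e-06, limma), and at 8 weeks alone -0.37 (adjusted p = 0.0200, against 0.0908% of all genes called, 0.0787% lower), a call that ended whichever of the 6 compared libraries was left out.

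Dlg4 had 393, 423 and 412 TPM in P209L libraries with the Hnrnph2 ASO at 8 weeks, against 461, 476 and 452 TPM with the control ASO. It had 499 and 458 TPM with the Hnrnph2 ASO at 3 weeks, against 528, 526 and 527 TPM with the control ASO, and 415, 399 and 395 TPM in R206W with the Hnrnph2 ASO, against 476, 453 and 488 TPM with the control ASO. No library with the Hnrnph2 ASO reached the control range of its cohort. The average change was -0.18 (SE 0.042, adjusted p = 0.0141, limma), with an adjusted p of 0.0972 when P209L replicate 2 with the Hnrnph2 ASO at 3 weeks was left out.

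Of the other genes called for the mutation, Grid1 changed by -0.15 (adjusted p = 0.0905), Cacng5 by 0.21 (adjusted p = 0.139), Grik1 by -0.10 (adjusted p = 0.256) and Grik4 by -0.10 (adjusted p = 0.629) with the Hnrnph2 ASO, and none of them passed. All 6 metabotropic receptors had negative values, from -0.33 for Grm3 to -0.01 for Grm2, without a call (2 with an unadjusted p under 0.05 in limma). Microglial markers moved in this comparison: 2 of 7 were called higher, where 2.5% of all genes were called in either direction. Their summed level was 232 to 311 TPM with the Hnrnph2 ASO and 182 to 243 TPM with the control ASO in P209L at 8 weeks, with overlap. At 3 weeks it was 255 to 265 TPM in P209L with the Hnrnph2 ASO and 188 to 211 TPM in P209L with the control ASO. In the R206W cohort it was 228 to 233 TPM in R206W with the Hnrnph2 ASO and 181 to 212 TPM in R206W with the control ASO. Other sums were higher with the Hnrnph2 ASO without overlap as well. In 8-week P209L, oligodendrocyte precursor markers had 236 to 259 TPM, against 196 to 223 TPM with the control ASO. In 3-week P209L, striatal projection neuron markers had 778 to 839 against 672 to 730 TPM, and astrocyte markers 2148 to 2160 against 1979 to 2120 TPM. Interneuron markers had 1768 to 1810 against 1668 to 1747 TPM there. The part of these cell types in the results was not tested.

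In single 3-week cohorts, no gene was called for the ASO in mutants (limma; 5 with an unadjusted p under 0.05 in P209L, 3 in R206W). The smallest p in P209L, where 0.0969% of all genes were called, were those of Cacng7 (-0.21, adjusted p = 0.389), Cacng5 (0.31, adjusted p = 0.4998) and Cnih2 (0.19, adjusted p = 0.613). In R206W, where 0.097% of all genes were called, they were those of Dlg4 (-0.23, adjusted p = 0.231), Cacng7 (-0.17, adjusted p = 0.567) and Grid1 (-0.16, adjusted p = 0.642).

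In WT mice none of the 37 genes was called for the Hnrnph2 ASO (limma, average over cohorts; 1 with an unadjusted p under 0.05), where 0.187% of all genes were called. The TARP Cacng3 had the smallest p, with a change of -0.19 (SE 0.086, adjusted p = 0.473), followed by Cnih2 (-0.08, adjusted p = 0.571) and Grm4 (-0.14, adjusted p = 0.588). Cacng3 had 71.8, 64.6 and 36.8 TPM in WT with the Hnrnph2 ASO at 3 weeks in the P209L cohort, against 71.6, 72.8 and 76.8 TPM in WT with the control ASO, and replicate 3 with the Hnrnph2 ASO, the library with the low mitochondrial share, lay far below the rest. Without it the average change of Cacng3 was -0.096 (adjusted p = 0.770), and it ranged from -0.25 to -0.096 over the fits that left out 1 library. That library also stood apart in Grik4, which had 10.9, 11.7 and 19.4 TPM in WT with the Hnrnph2 ASO, against 11.6, 10.7 and 10.4 TPM in WT with the control ASO. No gene passed in any single cohort in WT: 0, 0 and 3 of the 37 had an unadjusted p under 0.05 in the 8-week P209L, 3-week P209L and R206W cohorts. All genes gave 0.0182%, 0.0121% and 0.0121% of calls there. The smallest p were those of Cacng2 (0.11), Grin2d (0.09) and Grik3 (0.18) at 8 weeks, of Grm4 (-0.25), Cacng3 (-0.40) and Gria3 (-0.22) at 3 weeks in the P209L cohort, and of Cnih2 (-0.14), Cacng4 (-0.18) and Neto1 (-0.32) in the R206W cohort. Without WT replicate 3 with the Hnrnph2 ASO, the 3-week P209L values were -0.11 for Grm4, -0.11 for Cacng3 and -0.07 for Gria3.

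No marker of the 11 cell type lists was called for the Hnrnph2 ASO in WT (limma, average over cohorts), but some summed levels did not overlap. At 3 weeks in the P209L cohort, granule cell markers summed to 520.0 to 572 TPM in WT with the Hnrnph2 ASO and 603 to 651 TPM in WT with the control ASO, and markers of cortical excitatory neurons to 794 to 973 TPM with the Hnrnph2 ASO and 981 to 1029.6 TPM with the control ASO. In WT of the R206W cohort, markers of oligodendrocyte precursors summed to 325 to 346 TPM with the Hnrnph2 ASO and 366 to 382 TPM with the control ASO, of endothelium to 205.99 to 215 TPM with the Hnrnph2 ASO and 234 to 244 TPM with the control ASO, and of erythrocytes to 2559 to 3204 TPM with the Hnrnph2 ASO and 1379.8 to 1659 TPM with the control ASO. At 8 weeks, markers of astrocytes and of oligodendrocyte precursors were higher in all WT libraries with the Hnrnph2 ASO. Their part in these values was not tested.

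Cacng7 was the 1 gene of the 37 whose ASO effect differed between genotypes in a direct test. Its change with the Hnrnph2 ASO in mutants minus that in WT was -0.22 (SE 0.043, adjusted p = 0.0112, limma interaction term), where 0.302% of all genes were called, 0.284% lower, and 6 of the 37 had an unadjusted p under 0.05. In WT it changed by -0.03 (SE 0.030). With libraries rescaled by their median ratio the difference was -0.20 and no longer passed (adjusted p = 0.151). Without the WT library that stood apart it was -0.22 (adjusted p = 0.0133). Without 8-week WT control replicate 3, 2 of the 37 genes passed, Dlg4 being the other. Over all genes that fit called 74 of 16561, against 50 of 16556 in the main fit. Within single cohorts the interaction was called for none of the 37 genes (limma; 1, 2 and 0 with an unadjusted p under 0.05 in the 8-week P209L, 3-week P209L and R206W cohorts, where 0.00605%, 0.0363% and 0.0182% of all genes were called).

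Mutants and WT that both received the Hnrnph2 ASO share no library with the comparisons under the control ASO. The targeted gene differed here: Hnrnph2 was lower in mutants than in WT by 0.49 on the log2 scale (adjusted p = 0.0102, limma). At 8 weeks it had 11.6, 6.95 and 7.14 TPM in P209L with the Hnrnph2 ASO and 18.5, 20.6 and 11.96 TPM in WT with the Hnrnph2 ASO. Its own interaction term was -0.43 and was not called (adjusted p = 0.255). The part of this difference in the values below was not tested. None of the 37 genes was called (limma, average over cohorts; 4 with an unadjusted p under 0.05), where 0.67% of all genes were called. The genes called under the control ASO had these differences under the Hnrnph2 ASO: -0.0027 for Cacng7 (95% confidence interval -0.07 to 0.06), 0.08 for Grid1 (-0.02 to 0.17), 0.04 for Dlg4 (-0.05 to 0.12) and 0.09 for Grik1 (0.00 to 0.18). Grik4 had 0.07 (-0.08 to 0.22) and Cacng5 -0.04 (-0.18 to 0.11). In the 3-week P209L cohort Grik4 had 12.2 and 12.5 TPM in P209L and 10.9, 11.7 and 19.4 TPM in WT with the Hnrnph2 ASO. The 19.4 TPM came from WT replicate 3, the library that stood apart. The difference in mean TPM was -12.0% in that cohort, 10.8% at 8 weeks and 16.4% in the R206W cohort (mutants against WT). The Grik4 average and its interaction value below include that library, and no fit without it is given for Grik4. The direct test of the genotype effect under the Hnrnph2 ASO minus that under the control ASO is the interaction term above. It was called for Cacng7 and gave -0.16 for Grid1 (adjusted p = 0.539), -0.14 for Dlg4 (adjusted p = 0.621), -0.21 for Grik4 (adjusted p = 0.688), -0.08 for Grik1 (adjusted p = 0.845) and 0.21 for Cacng5 (adjusted p = 0.676), none of which passed. Of the cell type markers, 2 of 10 of cerebellar granule cells and 1 of 8 of mature oligodendrocytes were called lower in mutants under the Hnrnph2 ASO. No gene passed under the Hnrnph2 ASO in a single cohort either (limma; 0, 4 and 6 with an unadjusted p under 0.05 in the 8-week P209L, 3-week P209L and R206W cohorts, where 0%, 0% and 0.00606% of all genes were called).

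The smallest p under the Hnrnph2 ASO were those of Grik5 (0.17, SE 0.048, adjusted p = 0.112), Cnih2 (0.13, SE 0.046, adjusted p = 0.185) and Gria4 (-0.18, SE 0.065, adjusted p = 0.209), none of which was called. Grik5 had 113, 125 and 101 TPM in P209L and 103, 97.7 and 105 TPM in WT libraries at 8 weeks. It had 146 and 159 TPM in P209L and 122, 128 and 144 TPM in WT libraries at 3 weeks, and 126, 146 and 129 TPM in R206W and 121, 122 and 119 TPM in WT libraries of the R206W cohort. Mutants were above WT without overlap in both 3-week cohorts and overlapped WT at 8 weeks. Its adjusted p was 0.0370 without WT replicate 3 at 3 weeks in the P209L cohort and 0.0452 without P209L replicate 3 at 8 weeks.

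More of these genes were called for age than for genotype or ASO. The same held over all genes, of which 4.28% were called for the mutation and 2.5% for the Hnrnph2 ASO in mutants. In the P209L cohorts, 21 of the 37 genes differed between 8 and 3 weeks when averaged over the 4 groups of genotype and ASO, 20 of them lower at 8 weeks. Of all genes tested, 42.1% were called with age, 15.5% higher and 26.6% lower. The median log2 difference was -0.16 over the 37 genes and -0.03 over all genes, and 23 had an unadjusted p under 0.05. The 2 ages came from separate cohorts, so age and anything else that separated those cohorts cannot be told apart.

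NMDA receptor genes were among those that fell. Grin1 ranged from 209.2 to 288 TPM (median 256) in the 12 libraries at 8 weeks and from 296 to 361 TPM (median 309) in the 11 libraries at 3 weeks, without overlap (-0.33, SE 0.041, adjusted p = 4.08e-07, limma). Grin3a, a subunit of juvenile synapses, fell by 0.32 (adjusted p = 0.00122), Grin2d by 0.21 (adjusted p = 0.00192) and Grin2b by 0.28 (adjusted p = 0.0378), although the Grin2b call ended in 11 of 23 fits without 1 library. Grin2a and Grin2c, with -0.08 and 0.05, were not called.

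The AMPA receptor subunits themselves were not called with age (0 of 4 in limma, 0 with an unadjusted p under 0.05), with differences from -0.14 for Gria2 to 0.08 for Gria4. Their auxiliary genes included 4 of 9 that fell. The TARP Cacng4 ranged from 31.5 to 35.7 TPM (median 33.9) at 8 weeks and from 35.9 to 51.1 TPM (median 44.7) at 3 weeks. It did not overlap between ages and had the smallest adjusted p of the 37 genes (-0.36, SE 0.034, adjusted p = 2.29e-09, limma). The cornichon Cnih2 ranged from 163 to 218 TPM (median 189) at 8 weeks and from 221 to 277 TPM (median 239) at 3 weeks, again apart (-0.35, SE 0.039, adjusted p = 6.42e-08). Cacng2 and Cacng3 fell by 0.18 and 0.19, while Cacng7 (-0.06, adjusted p = 0.0781) and Cacng8 (-0.10, adjusted p = 0.140) did not pass.

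Of the kainate receptor genes 4 of 5 fell, led by Grik5 (-0.34, SE 0.042, adjusted p = 2.77e-07), and both kainate auxiliary genes fell, Neto1 by 0.37 (SE 0.061, adjusted p = 2.60e-05) and Neto2 by 0.27. Among MAGUKs, Dlg2, another postsynaptic scaffold, had the largest fall of all 37 genes (-0.38, SE 0.071, adjusted p = 1.04e-04), Dlg4 fell by 0.25 and Dlg3 by 0.11, and Dlg1 was not called (0.01). Of the metabotropic receptors, Grm4 and Grm2 fell by 0.23 and 0.20. Grm3, a receptor that astrocytes also carry, was the 1 gene called higher, with a range of 15.9 to 35.4 TPM (median 24.9) at 8 weeks and 11.3 to 27.6 TPM (median 22.5) at 3 weeks. The ages overlapped widely for it, and its call (0.31, SE 0.12, adjusted p = 0.0443) ended in 12 of 23 fits without 1 library. Grid1 fell by 0.14 (adjusted p = 0.00497).

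**Figure D4:**
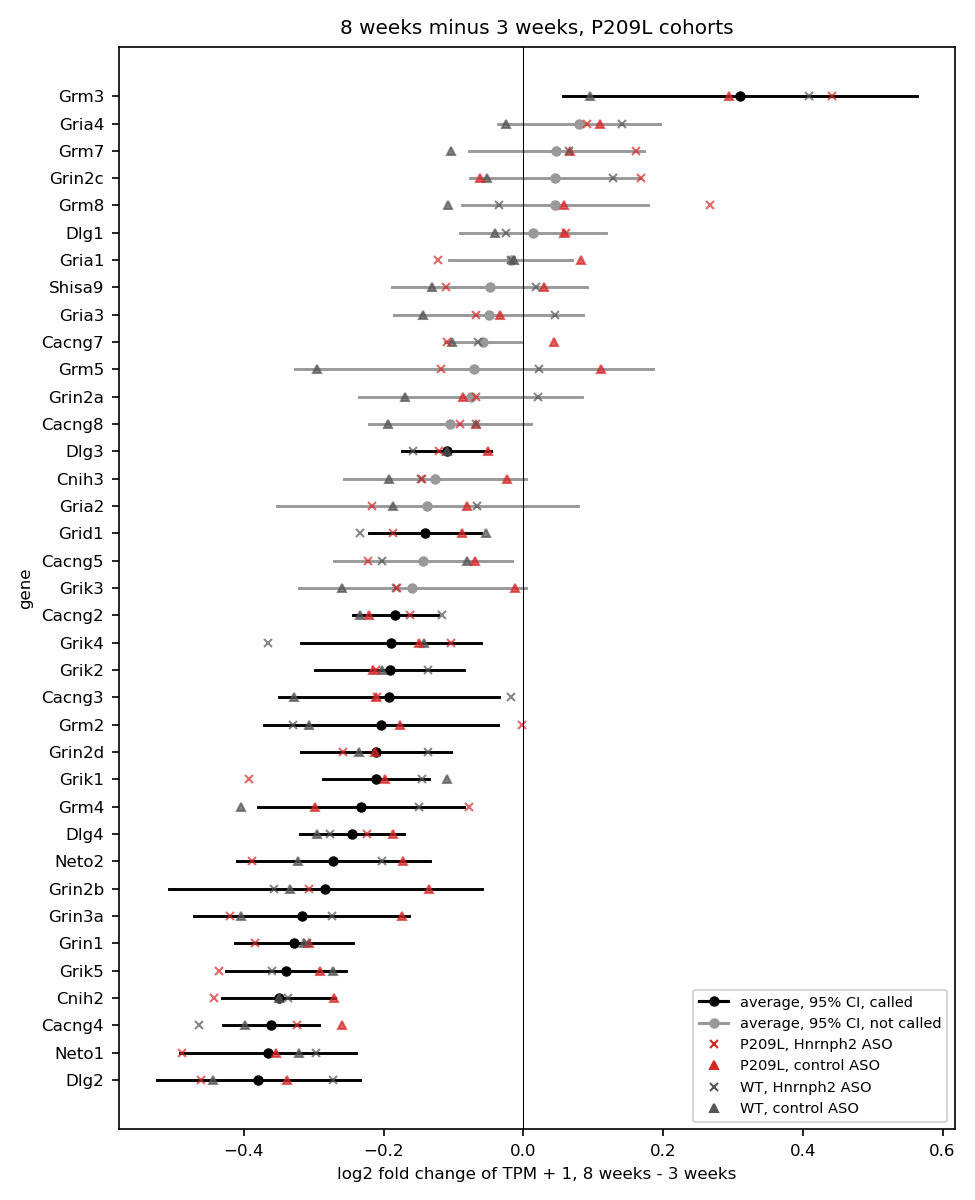
Difference between 8 and 3 weeks of each gene in the P209L cohorts, as log2 fold change of TPM + 1; circles and lines are the average over 4 groups with its 95% confidence interval (black where called), and coloured marks are the groups of genotype and ASO. Of 21 called genes 20 lie left of 0, with Dlg2 lowest at -0.38, and Grm3 alone lies right of it.

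Within each group taken alone, limma called 7 genes lower at 8 weeks in P209L with the Hnrnph2 ASO (15.8% of all genes were called, 8.35% lower), 5 in P209L with the control ASO (10.2%, 6.23% lower), 7 in WT with the Hnrnph2 ASO (11.8%, 8.78% lower) and 7 in WT with the control ASO (11.4%, 8.66% lower), and none higher. Cacng4, Cnih2, Grik5 and Grin1 were called in all 4 groups, although Grin1 was not (adjusted p = 0.0842) in WT with the Hnrnph2 ASO without 3-week replicate 3, where 5 genes were called (1171 of 16544 over all genes). Leaving out 1 library ended other calls too. In P209L with the control ASO it ended those of Grik5 in 4 of 6 fits, Cnih2 in 3, Grin1 in 2 and Cacng4 in 1. In WT with the control ASO it ended those of Grik5 in 4 of 6 fits (limma adjusted p up to 0.150) and Grin1 in 1. In P209L with the Hnrnph2 ASO, Cacng4 was -0.18 without 3-week replicate 1, and Grin1 was -0.29 without 3-week replicate 2. Either fit left 1 library of that group at 3 weeks, so only the differences are given here. Cacng4, Cnih2, Grik1, Grik5 and Grin1 were without overlap between the ages in all 4 groups. The share of all genes without such overlap was not computed, so this is a description only. WT with the control ASO gave 18 calls without 8-week replicate 3, where 2963 of 16561 genes were called over all. It gave 3 without 8-week replicate 2, where 998 of 16562 were called, against 1891 of 16556 in the main fit. Cell type markers differed with age as well. Markers of mature oligodendrocytes summed to 5836 to 8325 TPM at 8 weeks and to 12088 to 16102 TPM at 3 weeks in the P209L cohorts, with 7 of 8 called lower. Markers of oligodendrocyte precursors summed to 196 to 259 TPM at 8 weeks and to 317 to 429 TPM at 3 weeks, with all 6 called lower. Of the other lists, 4 of 10 of cortical excitatory neurons, 4 of 4 of erythrocytes and 5 of 9 of interneurons were called lower, and 2 of 10 of cerebellar granule cells, 3 of 7 of Purkinje cells and 1 of 7 of striatal projection neurons were higher. Astrocyte markers had 1 of 8 higher and 3 lower, microglial markers 2 of 7 higher and 2 lower, and endothelial markers 1 of 6 higher and 2 lower. Their part in the age differences was not tested.

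The ratio of Grin2b to Grin2a, the subunits whose balance shifts as NMDA receptors mature, is given as a description without a test. With the control ASO it was 1.67 ± 0.133 in P209L and 1.35 ± 0.193 in WT at 8 weeks, 1.72 ± 0.0598 in P209L and 1.51 ± 0.109 in WT at 3 weeks, and 1.496 ± 0.0289 in R206W and 1.22 ± 0.166 in WT of the R206W cohort (SD over 3 libraries). Mutant libraries lay above all WT libraries of their cohort at 3 weeks in both cohorts, and overlapped WT replicate 3 at 8 weeks. With the Hnrnph2 ASO the ratio was 1.37 ± 0.0799 in P209L and 1.26 ± 0.0972 in WT at 8 weeks, 1.63 ± 0.121 in P209L (2 libraries) and 1.65 ± 0.174 in WT at 3 weeks, and 1.26 ± 0.115 in R206W and 1.12 ± 0.123 in WT of the R206W cohort, with overlap in every cohort. The share of Gria2 among the 4 AMPA receptor subunits stayed within 31.6 to 36.8% as group means.

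**Figure D5:**
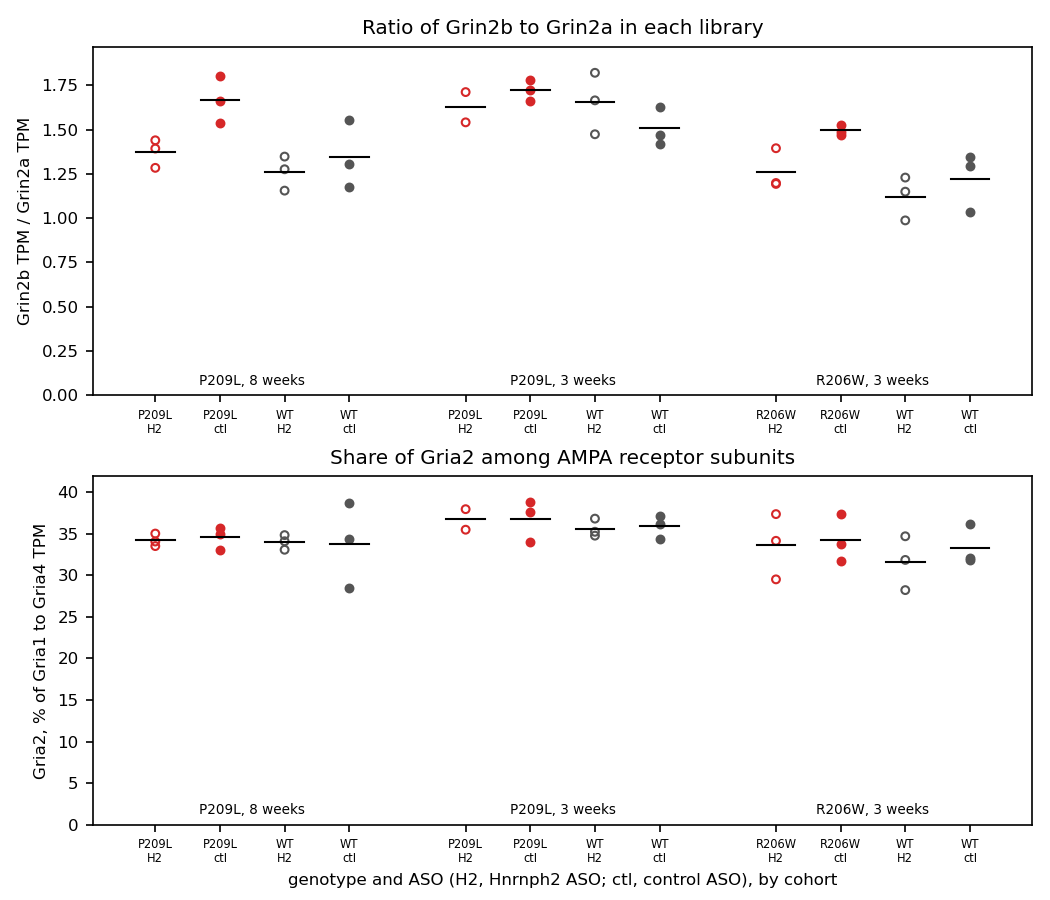
Ratio of Grin2b to Grin2a TPM (top) and Gria2 as a percentage of the summed TPM of Gria1 to Gria4 (bottom) in each library; points are libraries (mutants red, WT grey, open for the Hnrnph2 ASO and filled for the control ASO), bars are group means, and axes start at 0. With the control ASO the mean ratio is 1.67 in P209L and 1.35 in WT at 8 weeks.

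The genes also varied together between libraries of the same group. After removing group means, the correlation over the 35 libraries was 0.93 for Neto2 with Dlg2, 0.93 for Grik3 with Grm5, 0.92 for Gria3 with Grin2a, 0.92 for Grin2a with Grm5 and 0.91 for Grin2b with Grm5, the highest of all pairs. These are descriptions without a test, since the libraries share tissue and scaling. With the summed cerebellar granule cell markers, Grm4 (0.79), Grin2c (0.64) and Gria4 (0.63) had the highest correlations, and Cnih3 (-0.68), Cnih2 (-0.65), Cacng8 (-0.58) and Dlg4 (-0.57) the lowest. Cacng7 was near 0 (-0.02).

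Some members lie side by side in the genome. Cacng7 and Cacng8 are 25.8 kb apart on chromosome 7, and Cacng4 and Cacng5 79.9 kb apart on chromosome 11 (mm10). In each pair 1 gene was called for the mutation: Cacng7 had 0.22 and its neighbour Cacng8 0.17 (adjusted p = 0.134), and Cacng5 had -0.25 and its neighbour Cacng4 -0.11 (adjusted p = 0.106).

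Other genes of the excitatory synapse were also tested for the mutation, where 2.55% of all genes were called higher and 1.73% lower. Of 15 further genes of AMPA receptor traffic, 1 was higher and 1 lower, of 12 postsynaptic enzymes and scaffolds 1 was higher, of 9 adhesion genes 1 was higher, and of 8 genes of glutamate supply and uptake 1 was lower. Pick1, which binds the tail of AMPA receptor subunits, rose by 0.25 (adjusted p = 5.36e-05), Sipa1l1, a scaffold of dendritic spines, by 0.44 and the adhesion gene Lrrc4b by 0.20. Glul, the glutamine synthetase of astrocytes, fell by 0.26. Abhd6, a hydrolase of AMPA receptor complexes that was named after its value was seen, was the lower gene of the first list and fell by 0.14 (adjusted p = 0.0284, limma). With the Hnrnph2 ASO in mutants, Pick1 changed by -0.24, Sipa1l1 by -0.43, Lrrc4b by -0.13 and Glul by 0.34, all called, and in mutants against WT under the Hnrnph2 ASO none of these lists held a call. Between 8 and 3 weeks the lists held 3 higher and 7 lower, 1 higher and 6 lower, 0 higher and 7 lower, and 0 higher and 5 lower genes, against 42.1% of all genes called (15.5% higher and 26.6% lower). Slc17a7, a vesicular glutamate transporter, fell by 0.44, and the adhesion genes Nlgn3 and Lrrtm1 by 0.40 and 0.37.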

How the data were processed

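The authors deposited 1 table of TPM for 35 libraries. Per the submitters' processing notes, the tools were Trim Galore, STAR 2.7.1a, GATK 4.0.4.0 and RSEM with the mouse build mm10; their order is not given in the sources used here. TPM keeps no read depth, so depth and counting error are unknown. All columns were matched to a sample by title. WT libraries at 3 weeks were placed in a cohort by the prefix of the animal name in the title.

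The test was limma 3.58.1 (R 4.3.3), run on log2(TPM + 1) after keeping rows with a mean of at least 1 TPM, with Benjamini-Hochberg adjustment over all genes tested and a threshold of 0.05. Fold changes on this scale understate the change of low genes. Averages and age came from 1 fit of the 12 groups, single cohorts from fits of their 4 groups. The exact permutation test exchanged genotypes within cohorts (8000 arrangements). It was run on those of the 37 genes that limma had called for the mutation, without adjustment, and is not independent of those calls. The scripts were tested on simulated data. Gene coordinates are those of RefSeq for GRCm38.p6, the assembly of mm10, where 37 of 37 genes matched. Sequences were not used here.

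The genes, marker lists and other lists were chosen with earlier results of these data known. Genes were named in full where a comparison called them, up to 10 each, or else by the 3 smallest p, for age by the 8 largest called changes in each direction, and from other synapse genes at most 4 per comparison, with Abhd6 named beyond them after its value was seen. Replicate numbers were not treated as pairs, since no compared pair of groups had every same-numbered correlation over 0.1. The alternatives were no filter, a pseudocount of 0.1, rescaling by median ratios, the replicate block, the compared groups only, a cerebellar covariate and leaving out each library.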

Additional observations from a re-analysis of the deposited data

Results flagged for a closer look

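Among the 37 genes, Cacng7 stood out because its change with the Hnrnph2 ASO differed between genotypes in the interaction test, by -0.22 on the log2 scale (mutants minus WT, adjusted p = 0.0112, limma). The TARP gene Cacng4 stood out because WT libraries of 2 cohorts moved in opposite directions with the Hnrnph2 ASO. At 3 weeks in the P209L cohort every WT library with the Hnrnph2 ASO was above every one with the control ASO (48.0 ± 2.78 against 44.3 ± 0.971 TPM, SD, n = 3 each, a difference of 8.23%). In the R206W cohort every WT library with the Hnrnph2 ASO was below (38.6 ± 1.74 against 43.9 ± 0.667 TPM, a difference of -12.2%). The difference between the cohorts was not tested, and Cacng4 passed in neither. In WT of the R206W cohort, where Cacng4 was lower with the Hnrnph2 ASO, the summed markers of oligodendrocyte precursors were 325 to 346 TPM with the Hnrnph2 ASO and 366 to 382 TPM with the control ASO, those of endothelium 205.99 to 215 TPM with the Hnrnph2 ASO and 234 to 244 TPM with the control ASO, and those of erythrocytes 2559 to 3204 TPM with the Hnrnph2 ASO and 1379.8 to 1659 TPM with the control ASO. In WT of the 3-week P209L cohort, precursor markers were 378 to 402 TPM with the Hnrnph2 ASO and 381 to 429 TPM with the control ASO. Their part in the Cacng4 values was not tested.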

How the results depend on the processing

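Counts are of the 37 genes called by limma. For the mutation averaged over cohorts the 6 calls became 3 with the cerebellar covariate, 4 with the compared groups only (Dlg4 had an adjusted p of 0.0524) and 5 without the filter, and leaving out 1 library gave 4 to 10. The 10 came without 8-week WT control replicate 3, where 1164 of 16561 genes were called over all, against 708 of 16556 in the main fit. The interaction's 1 call became 0 with rescaling, and 1 to 2 without 1 library. For the mutation at 8 weeks the 1 call became 0 with the replicate block and 0 with the compared groups only, and leaving out 1 library gave 0 to 3 (3 without WT replicate 3). Without that library 84 of 16517 genes were called over all, against 28 of 16516 in the main fit. The 1 call of the Hnrnph2 ASO in 8-week P209L became 0 with the compared groups only and was 0 to 0 without 1 library; the cause was not tested. With the replicate block, the R206W cohort gave 2 calls for the mutation (Grin2c at -0.35 and Dlg4 at 0.20) and 1 for the Hnrnph2 ASO in R206W (Dlg4 at -0.23), where there had been 0. The block gave 7 calls for the mutation average, adding Grin2b and Grin2c and losing Cacng5. Age calls within groups, with the compared groups only, were 1 in WT with the control ASO, 2 in WT with the Hnrnph2 ASO and 0 in P209L with the Hnrnph2 ASO, where fewer samples enter the fit. With rescaling WT with the Hnrnph2 ASO had 4. When 1 library was left out, calls over all genes moved as well. In WT with the control ASO they were 2963 of 16561 in the fit with 18 calls and 998 of 16562 in that with 3. In P209L with the control ASO they were 905 of 16557 without 3-week replicate 1, against 1696 of 16556 in the main fit. In WT with the Hnrnph2 ASO they were 1316 of 16553 without 8-week replicate 1, against 1955 of 16556. Leaving out 1 library gave 3 to 18 in WT with the control ASO, 2 to 5 in P209L with the control ASO (2 without 3-week replicate 1 or 3, 3 without 8-week replicate 2 or 3), 4 to 7 in WT with the Hnrnph2 ASO (4 without 8-week replicate 1) and 4 to 10 in P209L with the Hnrnph2 ASO (4 without 3-week replicate 2). The age average gave 17 to 23 calls, and 16 genes were called in every setting and every fit without 1 library. The Hnrnph2 ASO in mutants gave 1 to 2 and mutants against WT under it 0 to 1. The direction of 1 value reversed: Grik3 with the Hnrnph2 ASO in 8-week WT was -0.036 without WT control replicate 2 and ranged up to 0.36 without another library.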

Other observations

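WT libraries with the control ASO at 3 weeks differed between the cohorts. These values were chosen after they were seen, and the difference was not tested. Grin2b had 26.3, 17.4 and 21.3 TPM in WT of the R206W cohort and 46.1, 36.1 and 37.1 TPM in WT of the P209L cohort, without overlap. Grm3 had 14.3, 13.2 and 13.8 TPM in WT of the R206W cohort and 23.2, 18.9 and 23.7 TPM in WT of the P209L cohort, again apart. The summed cerebellar granule cell markers were 918 ± 146 TPM in WT of the R206W cohort and 626 ± 23.9 TPM in WT of the P209L cohort (SD, n = 3 each), so the cohorts also differed in the markers of that tissue.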
